A study of Mus musculus with 12 samples.

Results

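The interferon-induced transmembrane genes Ifitm1, Ifitm2, Ifitm3 and Ifitm6 were described in 4 populations of phagocytes sorted from mouse skin. The members were taken by gene symbol in the platform annotation, with the brightest probe set kept for each gene, and they are 4 of the 19938 genes measured. The set was put forward because Ifitm6 was lower in melanophages than in macrophages, so the differences between these cell kinds are given here as a description, without a test. The MHC-II comparisons were not used in that choice and were tested, though earlier results of these data were known when the members were chosen.

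Skin of untreated wild-type C57BL/6 mice, kept free of specific pathogens, was the source of all samples. Melanophages, which are macrophages loaded with melanin, and other macrophages were each separated into cells without and with surface MHC class II. Each of the 4 groups so made (melanophages and macrophages, either MHC-II-negative or MHC-II-positive) has 3 arrays, numbered by accession, for 12 in all. All sorted cells were CD11b-positive, CD24-negative and CD64-positive, and lacked CCR2 and Ly6C at the surface. The labels disagree on the side scatter of the macrophages, high in one field and low in another, so it defines no group here. The sources used here give neither the age or sex of the mice nor whether arrays of 1 group came from different animals. Running codes in the sample titles form 3 sets of 4 arrays with 1 array of each group, numbered here like the arrays, and no label says what a set is. P-values therefore reflect only how these samples spread, which could be technical variation. In sorted bulk cells, fewer cells that express a gene and less RNA per cell cannot be told apart.

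IFITM proteins are small membrane proteins that restrict the entry of many enveloped viruses at the cell surface or in endosomes. Ifitm3 acts mainly in late endosomes and lysosomes, Ifitm1 is found more at the plasma membrane, and Ifitm2 is a close relative of Ifitm3. Ifitm3 and Ifitm2 are expressed in many tissues and are raised by interferons. Ifitm6 is a rodent member of the family that is expressed in myeloid cells, and its function is less well described. Values are log2 expression values on a scale where a difference of 1 is a doubling. The median of all probe sets lay between 2.97 and 3.08 on each array, which marks about the level of genes without clear signal.

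The promoters are shown first, because the members lie side by side on the chromosome. A link between their motifs and the differences of the groups was not tested. In the RefSeq gene table of assembly GRCm38.p6, Ifitm5, Ifitm2, Ifitm1, Ifitm3 and Ifitm6 follow each other in this order on chromosome 7. RefSeq promoter sequences of the same assembly were at hand for 4 of the 4 members. The following lines give the 100 bases before each annotated start, 5′ to 3′ on the strand of the gene. Capitals mark the motifs searched, which were the core of the interferon-stimulated response element (GAAA, any 2 bases, GAAA), the gamma-activated site (TTCNNNGAA) and, for Ifitm6 only, the TATA box (TATAAA).
Ifitm6, chr7:141016893-141016992, minus strand: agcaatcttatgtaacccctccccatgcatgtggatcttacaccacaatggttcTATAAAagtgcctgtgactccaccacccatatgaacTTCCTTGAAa
Ifitm3, chr7:141010745-141010844, minus strand: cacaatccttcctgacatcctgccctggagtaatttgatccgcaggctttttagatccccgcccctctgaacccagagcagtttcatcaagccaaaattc
Ifitm2, chr7:140955962-140956061, minus strand: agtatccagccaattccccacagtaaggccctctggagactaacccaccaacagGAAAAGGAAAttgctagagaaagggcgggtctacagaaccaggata
Ifitm1, chr7:140967976-140968075, plus strand: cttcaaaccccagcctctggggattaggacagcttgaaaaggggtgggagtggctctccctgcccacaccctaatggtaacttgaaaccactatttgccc

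Ifitm3 had no match in these 100 bases and 2 matches just past its start, in the site below. There, capitals mark a longer form, the core followed by CT, which begins at bases 3 and 20 of the transcript.
Ifitm3, chr7:141010714-141010742, minus strand: GAAAAGGAAACTtctgaGAAACCGAAACT

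Each window searched ran from 250 bases before to 50 bases after the start, on both strands, and matches of different motifs may overlap. The core element was found in the windows of Ifitm3 and Ifitm2 and in neither of the other two, and 3.44% of all 32851 promoters in the table hold it. The longer form, found only for Ifitm3 among the members, is in 0.271% of promoters. The gamma-activated site was found for Ifitm6, 10 bases before its start, and for Ifitm3, where it lies between and partly over the pair of response elements. That motif is in 8.3% of promoters and reads the same on both strands. A TATA box lies 46 bases before the start of Ifitm6, where 13.6% of promoters hold these letters on either strand, and Ifitm2 has them on the other strand 175 bases before its start. A match is a description of the letters and shows no binding.

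Ifitm6 had the widest range of the members over the 4 groups. In MHC-II-negative macrophages it was 7.15, 6.92 and 6.30 on the 3 arrays, with a mean of 6.79 ± 0.44 (SD, n = 3). In MHC-II-positive macrophages it was 5.97, 5.32 and 5.69, with a mean of 5.66 ± 0.33 (SD, n = 3). In MHC-II-negative melanophages it was 5.10, 4.63 and 5.33, with a mean of 5.02 ± 0.36 (SD, n = 3). Every MHC-II-negative macrophage array thus lay above every array of the other 3 groups. The lowest group was MHC-II-positive melanophages, at 4.53, 4.08 and 3.88, with a mean of 4.16 ± 0.33 (SD, n = 3). All 3 of its arrays lay below all others, while the neighbours in the middle of the order, MHC-II-positive macrophages and MHC-II-negative melanophages, touched, with a lowest array of 5.32 against a highest of 5.33.

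Ifitm3, the member best known for blocking viral entry from endosomes, stood far above the array medians in every group and followed the same order of group means over a much narrower range. It was 11.32, 11.27 and 11.21 in MHC-II-negative macrophages, with a mean of 11.27 ± 0.056 (SD, n = 3). It was 10.78, 11.11 and 10.98 in MHC-II-positive macrophages, with a mean of 10.96 ± 0.16 (SD, n = 3). It was 10.78, 10.88 and 10.75 in MHC-II-negative melanophages, with a mean of 10.80 ± 0.069 (SD, n = 3). The MHC-II-negative macrophage arrays were again the highest 3 of the 12. The MHC-II-positive melanophage arrays were at 10.33, 10.82 and 10.41, with a mean of 10.52 ± 0.26 (SD, n = 3). Here the neighbouring groups below the top overlapped, since the second MHC-II-positive melanophage array lay above the lowest array of MHC-II-positive macrophages.

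Ifitm2, also far above the array medians, showed no order of the groups. It was 11.36, 10.85 and 11.07 in MHC-II-negative macrophages, with a mean of 11.09 ± 0.26 (SD, n = 3). It was 11.04, 10.77 and 11.12 in MHC-II-positive macrophages, with a mean of 10.98 ± 0.19 (SD, n = 3). All 4 groups of arrays overlapped. It was 11.10, 11.35 and 10.89 in MHC-II-negative melanophages, with a mean of 11.11 ± 0.23 (SD, n = 3). It was 10.92, 11.07 and 10.96 in MHC-II-positive melanophages, with a mean of 10.98 ± 0.077 (SD, n = 3). Ifitm2 has 3 probe sets in the table. The other probe sets ranged from 9.80 to 10.38 and from 9.76 to 10.22 over the 12 arrays. The 3 probe sets differed in the direction between melanophages and macrophages (0.01, -0.09 and -0.14 averaged over MHC-II class) and shared that between MHC-II classes (-0.12, -0.04 and -0.07).

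Ifitm1, the member that is found more at the cell surface, lay nearer the array medians and varied most between arrays of a group. It was 4.84, 5.04 and 4.99 in MHC-II-negative macrophages, with a mean of 4.95 ± 0.10 (SD, n = 3). It was 4.71, 5.73 and 6.04 in MHC-II-positive macrophages, with a mean of 5.49 ± 0.70 (SD, n = 3). MHC-II-negative melanophages had 5.20, 5.82 and 5.24, with a mean of 5.42 ± 0.35 (SD, n = 3). The MHC-II-positive melanophage arrays spread furthest, at 4.74, 6.61 and 5.44, with a mean of 5.60 ± 0.94 (SD, n = 3), and overlapped every other group. The only groups of Ifitm1 that stood apart from each other were the MHC-II-negative groups, where all melanophage arrays lay above all macrophage arrays. The residual SD of Ifitm1 was 0.61, against 0.37 for Ifitm6, 0.20 for Ifitm2, 0.16 for Ifitm3 and a median of 0.15 over all genes. The residual SD is the spread of arrays around their group means, and it was smaller than that of Ifitm1 in 98.1% of genes. The second probe set of Ifitm1, between 4.61 and 6.08, differed from the first in direction between melanophages and macrophages of the MHC-II-negative class (-0.25 against 0.47).

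**Figure D1:**
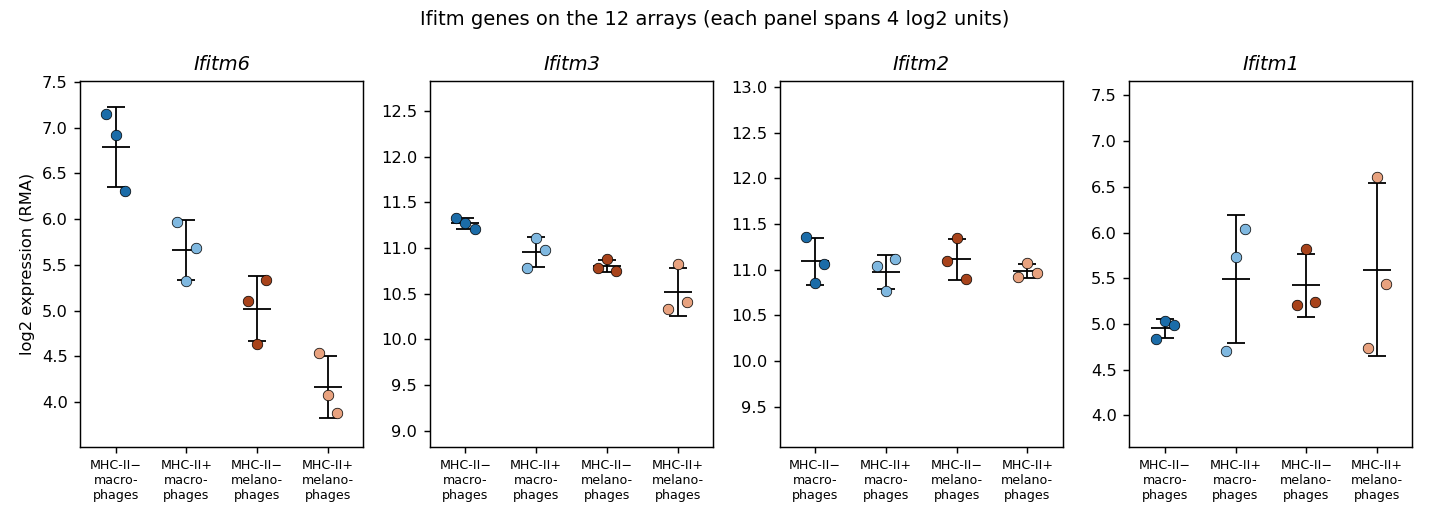
Log2 expression of Ifitm6, Ifitm3, Ifitm2 and Ifitm1 (vertical axes, each spanning the same number of log2 units) in the 4 sorted groups (horizontal axes). Points are single arrays, and bars are the mean and SD of 3 arrays; Ifitm6 runs from 6.79 in MHC-II-negative macrophages to 4.16 in MHC-II-positive melanophages, while the Ifitm2 groups overlap.

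The other genes of the family gave no clear signal. Ifitm5, known from bone-forming cells, was between 2.96 and 4.31 on the 12 arrays, Ifitm7 between 2.78 and 3.51 and Ifitm10 between 2.97 and 3.40. None of the 3 was called in the averaged MHC-II comparison with limma, against 0.762% of all genes. An unadjusted p under 0.05 was found for 0 of them, against 9.23% of all genes. Ifitm5 was 0.54 lower in melanophages on the log2 scale, near the level of genes without clear signal.

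The first tested comparison asked which genes differ between cells with and without surface MHC-II, averaged over the cell kinds. Ifitm6 was 1.99-fold lower in MHC-II-positive cells, with a log2 difference of -0.99 ± 0.19 (SE, limma adjusted p = 0.0438). It was lower on all MHC-II-positive arrays than on all MHC-II-negative arrays within each cell kind. Of all genes, 26 (0.13%) were called lower in MHC-II-positive cells, 152 (0.762%) were called in either direction, and 0.762% had arrays that did not overlap, with lower values in MHC-II-positive cells of both kinds. Only 0.105% of genes had a more negative difference than Ifitm6, where the median gene stood at -0.02.

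The call of Ifitm6 lay close to the threshold and rested on nearly all arrays. The difference stayed between -1.12 and -0.91 in all 12 fits that left out 1 array, but the call ended in 9 of them. In MHC-II-negative cells the limma adjusted p was 0.103 without melanophage array 1, 0.119 without melanophage array 3, 0.0851 without macrophage array 1 and 0.111 without macrophage array 2. In MHC-II-positive cells it was 0.12 without melanophage array 2, 0.115 without melanophage array 3, and 0.0511, 0.0987 and 0.076 without macrophage arrays 1, 2 and 3.

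Within macrophages, Ifitm6 differed by -1.13 ± 0.27 between the MHC-II classes (SE, limma adjusted p = 0.155). Within melanophages it differed by -0.86 ± 0.27 (SE, limma adjusted p = 0.527). Neither passed on its own, where 68 genes (0.341%) were called in macrophages and 42 (0.211%) in melanophages. The test of whether these MHC-II differences are unequal gave 0.27 ± 0.38 (SE, 95% interval -0.57 to 1.11, limma adjusted p = 1), so a difference between the cell kinds was not shown. No gene passed that interaction test with limma, and 820 genes (4.11%) had an unadjusted p under 0.05.

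Of the relatives, 0 of 3 passed in the averaged MHC-II comparison. Ifitm3 differed by -0.30 ± 0.09 (SE, limma adjusted p = 0.275), with a 95% interval from -0.50 to -0.10 before adjustment. In macrophages its MHC-II-positive arrays all lay below the MHC-II-negative ones, as did those of 7.07% of genes, and in melanophages they overlapped. Ifitm2 differed by -0.12 ± 0.11 (SE, limma adjusted p = 0.779), with an interval from -0.36 to 0.11. Ifitm1 differed by 0.36 ± 0.31 (SE, limma adjusted p = 0.783), and its interval from -0.34 to 1.05 was the widest of the members.

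**Figure D2:**
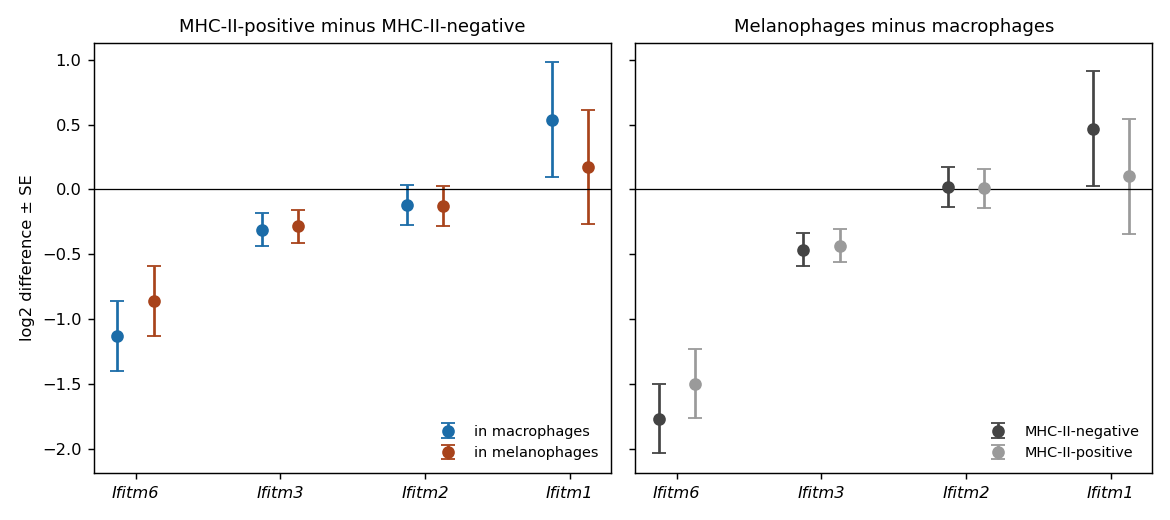
Log2 differences with SE (vertical axis) of the 4 genes between MHC-II classes within each cell kind (left) and between cell kinds within each MHC-II class (right), from 1 limma fit of 12 arrays. Ifitm6 lies lowest in both panels, from -0.86 to -1.13 on the left and from -1.50 to -1.77 on the right.

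Whether Ifitm6 moved more than its relatives was tested on the difference between members within each array. The MHC-II labels were rearranged within each cell kind in all 400 ways, which gives a smallest possible two-sided p of 0.005, and 6 pairs were compared. From MHC-II-negative to MHC-II-positive cells, Ifitm6 fell by 0.70 more than Ifitm3 on the log2 scale (exact permutation p = 0.025). The same difference was -0.87 for Ifitm6 minus Ifitm2 (exact permutation p = 0.015) and -1.35 for Ifitm6 minus Ifitm1 (exact permutation p = 0.02). Adjusted over the 6 pairs, each of these 3 stood at 0.05 and so did not fall under the threshold of 0.05. Ifitm3 and Ifitm2 were brighter than 99.4% of genes and Ifitm6 than 83.3%. Whether their probe sets respond alike to a change in RNA was not tested. Ifitm3 minus Ifitm1 differed by -0.65 (exact permutation p = 0.035, adjusted 0.0525), Ifitm2 minus Ifitm1 by -0.48 (exact permutation p = 0.18, adjusted 0.195) and Ifitm3 minus Ifitm2 by -0.17 (exact permutation p = 0.195, adjusted 0.195).

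Between the cell kinds, the contrast for which Ifitm6 was put forward, the members stood in the same order of signed differences, averaged over the other factor, as between the MHC-II classes. Ifitm6 was 3.41-fold lower in melanophages than in macrophages without MHC-II (log2 difference -1.77 ± 0.27 SE) and 2.82-fold lower with MHC-II (-1.50 ± 0.27 SE). In both classes its melanophage arrays lay wholly below its macrophage arrays, as in 0.456% of all genes. Ifitm3 was 1.38-fold lower in MHC-II-negative melanophages (-0.46 ± 0.13 SE), with no overlap, as in 3.91% of genes. It was 1.35-fold lower in MHC-II-positive melanophages (-0.44 ± 0.13 SE), with overlap. Ifitm2 differed by 0.02 ± 0.15 and 0.01 ± 0.15 (SE) in the 2 classes, and its sign averaged over the classes turned in 6 of 24 alternatives. Ifitm1 differed by 0.47 ± 0.44 (SE) without MHC-II, with no overlap between the arrays of the kept probe set. Its second probe set differed by -0.25 there, with overlap. The share of all genes that stood apart in this direction is not given here. With MHC-II the kept probe set of Ifitm1 differed by 0.10 ± 0.44 (SE), with overlap. This value ran from -0.40 to 0.53 when single arrays were left out. In the contrast averaged over MHC-II class, 24 genes (0.12%) were called.

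Markers of other cells also varied between the cell kinds, in both directions. Of 9 monocyte markers 7 lay below 0 in melanophages, with a median of -0.28, and 0 were called with limma (4 with an unadjusted p under 0.05). Of 12 dendritic cell markers 9 lay below 0, with a median of -0.04, and 2 were called lower. These were the integrin gene Itgax (-0.80 ± 0.11 SE, limma adjusted p = 0.0404) and the Langerhans cell lectin gene Cd207 (-1.16 ± 0.15 SE, limma adjusted p = 0.0262). Itgax differed by -1.44 in MHC-II-positive and by -0.15 in MHC-II-negative cells. The level of Cd207 averaged 3.17 in melanophages and 5.17 in macrophages with MHC-II, and its difference without MHC-II was -0.32. With single arrays left out, the call of Itgax held in 3 of 12 fits, those without an MHC-II-positive macrophage array. That of Cd207 held in 5 of 12, in those same fits and without MHC-II-negative macrophage array 1 or MHC-II-positive melanophage array 2. The highest limma adjusted p was 0.111 for Itgax and 0.0875 for Cd207. Not all lists leaned this way. Of 10 keratinocyte markers 9 lay above 0, with a median of 0.09, and of 10 melanocyte markers 8, with a median of 0.08. Of 8 lymphoid markers 4 lay above 0, as did 6 of 12 neutrophil markers. In these lists 0 were called, against 0.12% of all genes. The lymphoid marker Il7r averaged 7.85 in melanophages and 5.98 in macrophages without MHC-II. With MHC-II, the neutrophil marker S100a8 averaged 6.93 and 5.53. Itgam, which encodes the CD11b used in the sort, lay between 5.80 and 6.87 on the MHC-II-negative melanophage arrays, against 7.05 to 7.64 on those of macrophages. With MHC-II it ranged from 6.91 to 7.13 and from 7.65 to 8.13, so in both classes the melanophage arrays lay below. The part of these genes' cells in the lower Ifitm6 of melanophages was not tested.

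The genes beside the cluster showed no called difference. The 5 protein-coding genes on each side were chosen by position after the values of the members were known. Of these, 0 of 10 were called with limma in the averaged MHC-II comparison, against 0.762% of all genes. The differences of the 10 lay between -0.13 and 0.28 there and between -0.08 and 0.15 between the cell kinds. Only 1 of the 10 had a mean of at least 5, so for the others little signal stood behind these values.

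**Figure D3:**
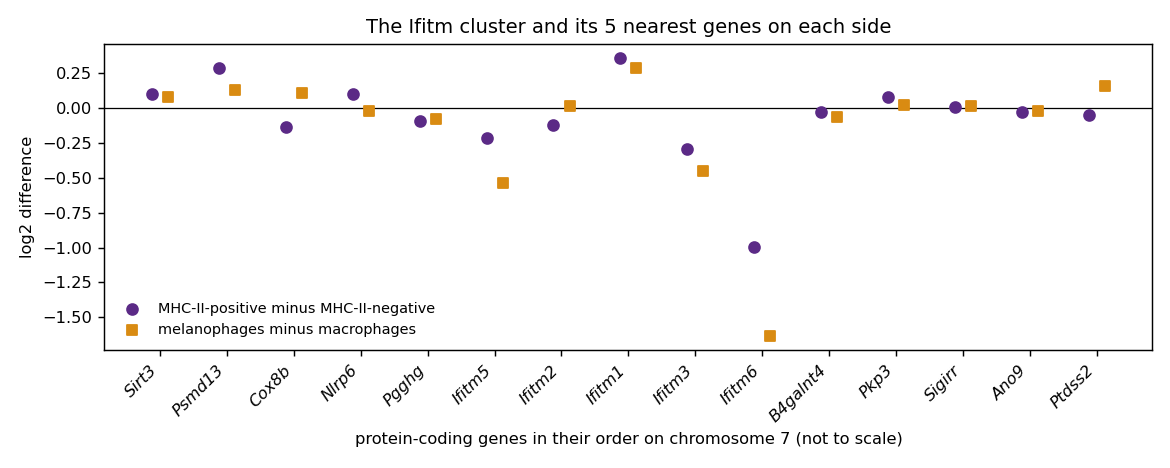
Log2 differences (vertical axis) of the 5 Ifitm genes of the cluster and the 5 protein-coding genes on each side, in their order along chromosome 7 (horizontal axis, not to scale). Circles compare MHC-II classes and squares compare cell kinds, each averaged over the other factor; Ifitm6 stands at -0.99 and -1.63, and the 10 flanking genes stay between -0.13 and 0.28.

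Interferons signal through the receptors Ifnar1, Ifnar2, Ifngr1 and Ifngr2 and the kinases Jak1, Jak2 and Tyk2 to STAT factors, which act on elements like those shown above. In MHC-II-positive cells, most measured genes of this pathway lay above 0. Of 11 measured receptors and signalling genes 10 did, with a median of 0.36 against -0.02 over all genes. Of these, Jak2 rose by 0.74 ± 0.14 (SE, limma adjusted p = 0.0371), where 0.632% of all genes were called higher, and 0 of the list were called lower. That call ended, with differences from 0.69 to 0.79 and limma adjusted p from 0.055 to 0.0967, without any 1 of 8 arrays. These were MHC-II-negative melanophage arrays 1, 2 and 3, MHC-II-negative macrophage arrays 2 and 3, MHC-II-positive melanophage array 1 and MHC-II-positive macrophage arrays 1 and 2. Of 22 type I interferon response genes 19 lay above 0 with a median of 0.16, and of 14 type II response genes 14 did, with a median of 0.25. Of 12 other antiviral restriction factors 10 lay above 0, with a median of 0.19. In these last 3 lists 0 genes were called with limma, where 5, 6 and 3 had an unadjusted p under 0.05, as had 9.23% of all genes. Signal was low for many: 3 of 11 receptors and signalling genes and 9 of 22 type I genes had a mean under 4. So did 3 of 14 type II genes and 5 of 12 restriction factors. The share of all genes above 0 was not counted, and a link of these lists to Ifitm6 was not tested.

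The extremes of these 59 genes, singled out after their values were seen, did not pass. They were Cxcl9, an interferon-gamma induced chemokine, at 2.80 ± 0.59 (SE, limma adjusted p = 0.0733) and Ch25h, which makes the antiviral lipid 25-hydroxycholesterol, at -1.38 ± 0.29 (SE, limma adjusted p = 0.0689). Between the cell kinds 43 of the 59 lay below 0 with a median of -0.10, against 0.01 over all genes, and 0 were called. The medians of the 4 lists were -0.17 for receptors and signalling, -0.08 for type I response, -0.04 for type II response and -0.25 for restriction factors. Of 12 partners of the IFITM proteins and tetraspanins of the endosome, 0 were called with limma in the averaged MHC-II comparison, against 0.762% of all genes. An unadjusted p under 0.05 was found for 4 of the 12, against 9.23% of all genes. Their median was -0.02, as was that of all genes.

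**Figure D4:**
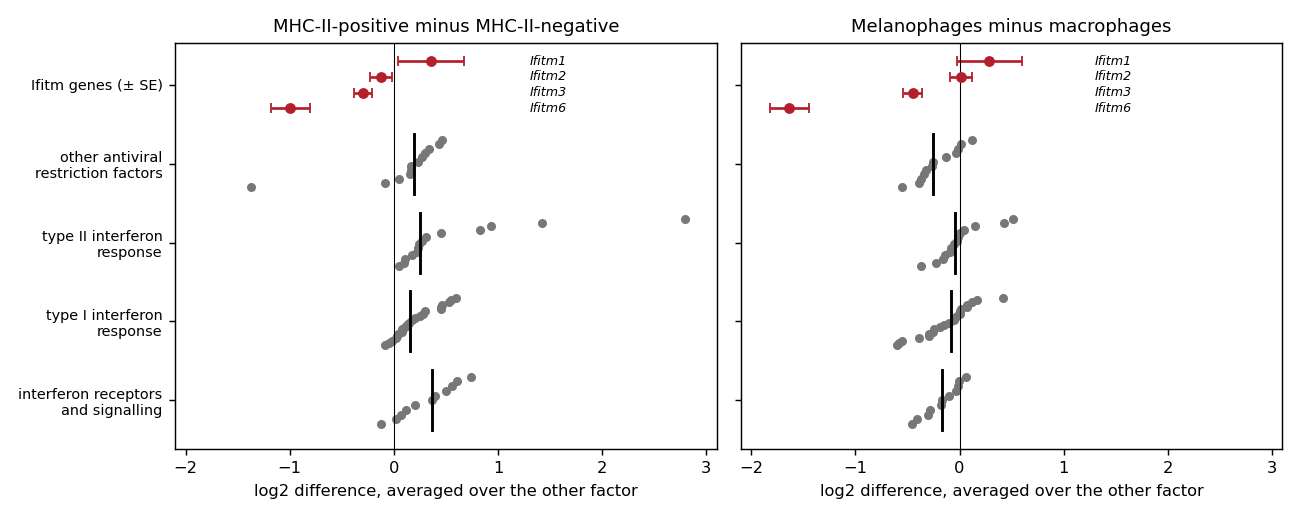
Log2 differences (horizontal axes) of the 4 Ifitm genes with SE and of 4 lists of interferon-related genes (rows), between MHC-II classes (left) and cell kinds (right). Grey points are genes and black lines are list medians; the medians lie from 0.16 to 0.36 on the left, where Ifitm6 is at -0.99.

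The sort and the cell types were checked on the same arrays. H2-Ab1, a chain of MHC class II, ranged from 7.37 to 9.60 on the MHC-II-negative arrays and from 11.22 to 11.61 on the MHC-II-positive arrays, and no array lay on the wrong side. Of 12 macrophage markers 11 had a mean of at least 5. All 10 keratinocyte and all 10 endothelial markers had a mean under 4, as did 11 of 12 neutrophil, 9 of 10 fibroblast and 9 of 10 melanocyte markers. The neutrophil exception, S100a8, averaged 6.93 in MHC-II-positive melanophages and 4.88 to 5.86 in the other groups. The fibroblast exception, Dcn, averaged 6.31 (SD 1.11) in MHC-II-negative macrophages and 5.26 to 5.37 in the other groups. The melanocyte exception, Mitf, averaged 4.80 to 5.08. The part of such cells in the values of Ifitm6 was not tested. Of 9 monocyte markers 4 had a mean under 4, and in the averaged MHC-II comparison 6 lay above 0 and 3 below, with a median of 0.02. The mean log2 value of the list, carried by a few genes, lay between 4.67 and 4.86 in MHC-II-negative melanophages and between 5.37 and 5.64 in MHC-II-positive ones. In macrophages it lay between 4.84 and 4.94 without and between 5.50 and 6.08 with MHC-II.

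Of the 9 monocyte markers 3 rose in the averaged MHC-II comparison, which are Ccr2 (3.23), whose protein was gated as absent from the surface, Ms4a4c (1.84) and Fn1 (1.35). Of 12 dendritic cell markers 3 rose, Ccr7 (1.97), Itgax (1.26) and Cd207 (1.20), and the list had a median of 0.24. Of 8 lymphoid markers 2 rose, Il7r (1.94) and Cd2 (1.37), and the list had a median of 0.11. No marker of these 3 lists was called lower, and 0.632% of all genes were called higher, with limma adjusted p from 3.93e-05 to 0.00645 over these 8 genes. Within melanophages and macrophages the MHC-II difference was 0.36 and 2.04 for Cd207, 0.62 and 1.91 for Itgax, 0.93 and 2.95 for Il7r, and 1.89 and 0.84 for Cd2, and none of these passed the interaction test. Of the dendritic cell markers 9 of 12 had a mean under 4, and the list ranged from 3.05 to 3.26 on the MHC-II-negative and from 3.33 to 3.80 on the MHC-II-positive arrays. The lymphoid list, with 6 of 8 markers under 4, ranged from 3.42 to 3.51 and from 3.80 to 3.95. The part of these cell types in the fall of Ifitm6 was not tested.

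Over the 12 arrays Ifitm6 and Ifitm3 correlated with r = 0.81 (rho = 0.75), which follows the shared order of their group means. The deviations from the group means had r = -0.36, so arrays of a group did not follow that relation. Ifitm1 and Ifitm3 showed the reverse, with r = 0.00 over the values and r = 0.89 over the deviations of the 12 arrays. The deviations of these genes went by title set in part. Ifitm1 lay below its group means on all 4 arrays of set 1 and above them on all 4 of set 2, Ifitm3 lay above on all 4 of set 2, and Ifitm6 lay above on all 4 of set 1. In its other sets each of these genes lay on both sides of its group means. How many of all genes show such a pattern was not counted. Over all genes, deviations correlated at a median of -0.03 within sets and 0.06 between sets. Without the 2 arrays farthest out for Ifitm3 the r of the deviations of Ifitm1 and Ifitm3 was 0.75. The second probe set of Ifitm1 gave 0.60 over the 12 arrays and 0.43 without those 2 arrays. These correlations describe 12 arrays that share group means and title sets, and are no test.

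**Figure D5:**
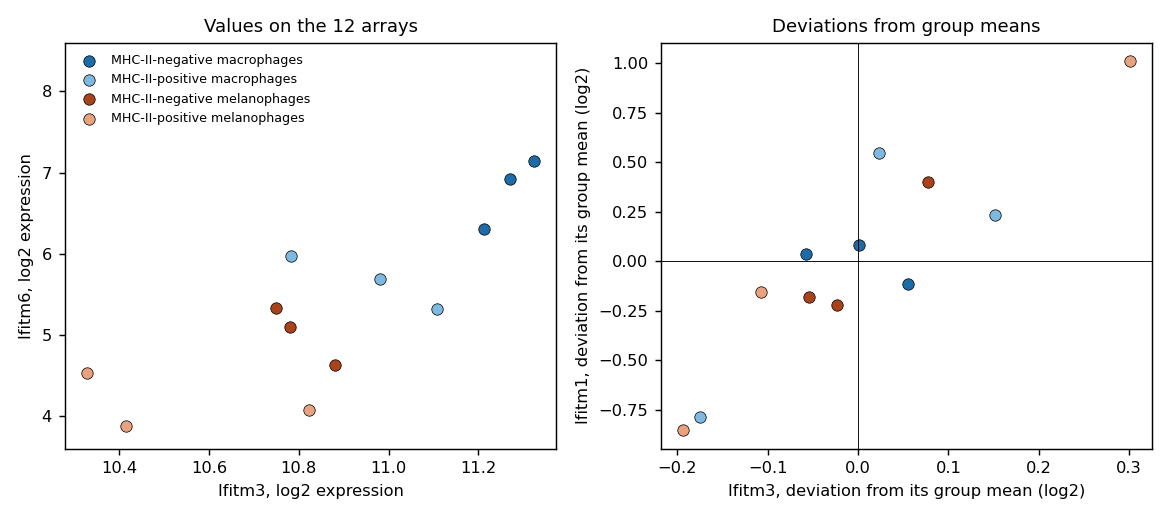
Left, log2 expression of Ifitm6 (vertical) against Ifitm3 (horizontal) on the 12 arrays, coloured by group. Right, deviations of Ifitm1 (vertical) and Ifitm3 (horizontal) from their group means on the log2 scale; over all arrays Ifitm6 and Ifitm3 have r = 0.81, and the deviations of Ifitm1 and Ifitm3 lie along a rising line with r = 0.89.

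The genes most like each member were sought among 698 genes with a mean of at least 5 and an SD of at least 0.5, by Pearson r over the 12 arrays. For Ifitm6 they were Lyve1 (0.84), a hyaluronan receptor of resident macrophages and lymphatic vessels, and the stress-induced chromatin protein gene Nupr1 (0.77). Then came Ms4a8a (0.74), the mechanosensitive channel gene Piezo1 (0.72), the redox regulator Txnip (0.68), the DNA-sensing adaptor Sting1 (0.67), Smagp (0.66) and the glutathione transferase Gstp1 (0.66). As with Ifitm3, the likeness lay between groups: the deviations of Ifitm6 and Lyve1 from their group means had r = -0.69.

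Ifitm3 was most like Lyve1 (0.93), the C-type lectin gene Cd209f (0.89), Nupr1 (0.88) and Sting1 (0.81), so 3 of its 4 genes were also among the 8 of Ifitm6. For Lyve1 and Ifitm3 the deviations from the group means had r = 0.62. Ifitm1 was most like the stress-response gene Gadd45b (0.75), the adhesion molecule Vcam1 (0.73), Ccdc180 (0.72) and the metalloproteinase inhibitor Timp1 (0.71). Ifitm2, which hardly differed between groups, was most like Zfp991 (0.86), Sdhaf4 (0.84), Dpy30 (0.77) and Sft2d1 (0.77).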

How the data were processed

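Total RNA of sorted cells (3 to 20 ng) was amplified, labelled with biotin and hybridised to arrays, per the labels' protocols. The deposited table holds log2 expression values that the authors made by RMA with oligo, an R package, per the submitters' processing notes. Its version, its settings and the genome build were not given in the sources used here. The table has 35556 probe sets, of which 21789 carry 1 gene symbol in the platform annotation, 1621 several and 12146 none here. No pair of arrays holds identical values. Median log2 values per array were 2.97 to 3.08, and arrays correlated with their group mates at a mean r of 0.972 to 0.988. The number of arrays limits the precision.

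Of several probe sets for a gene, that with the highest mean over the arrays was kept. One model with a mean per group was fitted to all 12 arrays with limma 3.58.1 in R 4.3.3 (lmFit and eBayes), with two-sided tests and Benjamini-Hochberg adjustment over 19938 genes. A gene was called at an adjusted p under 0.05. Pairs of members were compared by an exact permutation test. The members and 15 gene lists (167 of 180 entries matched) were chosen with earlier results of these data known. Named genes are the members, up to 3 called genes per list with the largest averaged MHC-II difference, and the 8 (Ifitm6) or 4 genes most correlated with a member, leaving out predicted, olfactory, vomeronasal and antigen receptor genes. Replicates were numbered in accession order, which pairs no samples. The fit was tested on simulated data. Alternatives were filters on dim genes, renormalizations, other handling of probe sets, variance models, array weights, left-out arrays and a block on title sets.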

Additional observations from a re-analysis of the deposited data

How the results depend on the processing

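None of the differences of the members or their pairs changed sign while called in either setting. Differences between the cell kinds were not tested and so could not be called. Some uncalled values did change sign. The interaction kept its sign in 16 of 24 alternatives for Ifitm2 and in 22 of 24 for Ifitm3 and for Ifitm1. The MHC-II difference of Ifitm1 in melanophages ran from -0.33 to 0.60. The fall of Ifitm6 in MHC-II-positive cells passed in 11 of 24 alternatives, with limma adjusted p from 0.0157 to 0.126. It missed the threshold with quantile normalization again (-1.05, limma adjusted p = 0.0565), with every probe set in the fit (-0.99, 0.0862), with robust eBayes (-0.99, 0.0518) and without 9 single arrays (-1.12 to -0.91 over all 12). It also missed it without both macrophage arrays farthest from their group mates (-0.91, 0.126), an alternative chosen after seeing the data. With group medians the pairs of Ifitm6 with Ifitm3 (-0.90), Ifitm2 (-1.11) and Ifitm1 (-1.85) passed at an adjusted exact permutation p of 0.04. Without single arrays these pairs ranged from -0.84 to -0.58, from -1.03 to -0.74 and from -1.66 to -1.08 and passed in 3 of 12, and Ifitm3 minus Ifitm1 ranged from -0.82 to -0.48 and passed in 2 of 12.

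Counts of called genes moved more. Without single arrays they ranged from 96 to 158 for the averaged MHC-II comparison (152 with all arrays), from 19 to 46 in melanophages (42), from 47 to 92 in macrophages (68), from 0 to 3 for the interaction (0) and from 1 to 30 between the cell kinds (24). The last was 15 after centring on array medians, 1 with every probe set, 45 with array weights and 117 without both far macrophage arrays. The count for the MHC-II comparison within macrophages was 27 in a fit of the 2 macrophage groups only. Jak2 was not called with quantile normalization again, which left 0 called receptors and signalling genes. Of the genes most like Ifitm6, 4 of 8 were also chosen by Spearman's rho and 0 of 8 by deviations from the group means. For Ifitm3 these counts were 3 and 0 of 4, for Ifitm2 1 and 1 of 4, and for Ifitm1 1 and 0 of 4. Low signal limits Ifitm6 in melanophages (lowest array 3.88), and Ifitm1, Ifitm5, Ifitm7 and Ifitm10. A replicate block on the 3 sets of title codes was chosen after seeing the data. Deviations from the group means of arrays of 1 set correlated above 0.1 in 5 of 18 pairs (median -0.03), against 11 of 36 pairs of different sets, and 5 of 12 arrays correlated best with their own set. With that replicate block Ifitm6 had -0.99 (limma adjusted p = 0.0332), and its MHC-II difference was below 0 in all 6 comparisons within a set and cell kind (-1.60 to -0.55). The count of called genes was 145 for the averaged MHC-II comparison and 18 between the cell kinds. No call of the other members changed, the 3 pairs with Ifitm6 stood at an adjusted exact permutation p of 0.0625 (0.0313 before adjustment, the smallest that 64 rearrangements allow), and Jak2 was not called (limma adjusted p = 0.0728).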
